A study of Arabidopsis thaliana with 72 samples.

Results

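A set of 9 genes of the NAC family of plant transcription factors was followed through all 72 libraries of the series: NAC004 (AT1G02230), NAC003 (AT1G02220), ATAF1 (AT1G01720), ATAF2 (AT5G08790), ANAC019 (AT1G52890), ANAC055 (AT3G15500), ANAC072 (AT4G27410), ANAC032 (AT1G77450) and ANAC042 (AT2G43000). They are 9 of the 27655 genes of the deposited count table and were chosen by gene identifier, NAC004 because its count rose after NHP in Col-0 and sid2-2 and the other 8 as its tandem neighbour and as known stress NAC genes. The responses of NAC004 to NHP in Col-0 and sid2-2 are therefore given as a description, without a test, and so are its levels in the mock libraries of these genotypes. All 9 were listed with earlier results of these data known, those of fmo1-1 included, so the p-values of the other 8 and of NAC004 in fmo1-1 measure the spread between wells and are not independent support for a choice already made. All 9 genes passed the filter on low counts, which kept 21042 genes.

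Whole Arabidopsis thaliana seedlings were grown in liquid half-strength MS medium for 10 days, given fresh medium, and treated 1 h later with N-hydroxy-pipecolic acid (NHP), a mobile signal of systemic acquired resistance, at a final 0.5 mM, or with MS medium alone (mock). The seedlings were the wild type Col-0, the sid2-2 mutant, which lacks the salicylic acid (SA) synthesis gene ICS1, and the fmo1-1 mutant, which lacks FMO1, the enzyme that makes NHP. Pooled seedlings of 1 well were collected after 15 min, 30 min, 3 h or 6 h, with 3 wells for each of the 24 groups, so the p-values below measure the spread between wells of pooled seedlings. The 3 genotypes, 4 times and 2 treatments are fully crossed, and the mock groups had the medium changed as well. Each plate of wells held 1 genotype, so genotype and plate cannot be told apart, and which wells shared a plate is not given. The study's methods name Col-0 and sid2-2 only, and fmo1-1 is taken to have been grown in the same way.

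NAC proteins carry a conserved DNA-binding domain at the amino end and a variable region that activates or represses transcription at the other end. The ATAF branch of the family (ATAF1, ATAF2, ANAC032) and the trio ANAC019, ANAC055 and ANAC072 are known from drought, abscisic acid, jasmonate, wounding and pathogen responses, and ANAC042, also called JUNGBRUNNEN1, from responses to hydrogen peroxide. SA acts through NPR proteins and TGA factors, bZIP proteins that bind DNA with the core TGACG. WRKY factors bind the core TTGAC of the W-box, and bZIP and bHLH factors of the abscisic acid and jasmonate pathways bind sites with the core ACGTG.

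NAC004 and NAC003 are neighbours on the same strand of chromosome 1 (TAIR10.1 annotation from RefSeq): NAC003 spans positions 428650 to 430720 and NAC004 positions 434965 to 436922, with 4244 bases between them, and NAC005 (AT1G02250) follows 937 bases beyond NAC004. Their coding sequences were similar: 81.8% of 1035 aligned coding bases were identical between NAC004 and NAC003, with a longest shared run of 28 bases, and 80.2% of 1047 between NAC004 and NAC005, with a run of 34. How reads with several matches were counted is not given in the sources used here. NAC005 held 0 to 4 counts in each library. Of the other members, ANAC019 and ANAC055 shared 79.7% of 930 aligned coding bases, and ATAF1 and ANAC032 shared 73.8% of 747.

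The 250 bases before the annotated transcript start are printed for the 4 members that were higher with NHP at 2 or more times in each of at least 2 genotypes (NAC004, NAC003, ATAF2 and ANAC032), since these are the sequences a reader would set beside the NHP response. They read 5′ to 3′ on the strand of the gene in TAIR10.1, from chr1:436923-437172 for NAC004, chr1:430721-430970 for NAC003, chr5:2860559-2860808 for ATAF2 (all minus strand) and chr1:29099589-29099838 for ANAC032 (plus strand). Capitals mark matches on either strand to the bZIP core TGACG, to the W-box core TTGAC and to the abscisic acid and jasmonate related core ACGTG, which overlap where one word runs into the next.
NAC004: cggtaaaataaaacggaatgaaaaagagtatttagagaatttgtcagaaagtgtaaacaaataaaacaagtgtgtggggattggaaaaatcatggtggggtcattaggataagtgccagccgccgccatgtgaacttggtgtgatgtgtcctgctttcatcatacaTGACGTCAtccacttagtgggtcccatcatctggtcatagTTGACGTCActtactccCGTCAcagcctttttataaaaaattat
NAC003: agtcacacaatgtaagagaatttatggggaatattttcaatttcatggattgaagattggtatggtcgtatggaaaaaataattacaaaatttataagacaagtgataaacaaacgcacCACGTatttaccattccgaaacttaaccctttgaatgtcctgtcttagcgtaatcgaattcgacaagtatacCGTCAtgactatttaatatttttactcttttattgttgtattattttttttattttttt
ATAF2: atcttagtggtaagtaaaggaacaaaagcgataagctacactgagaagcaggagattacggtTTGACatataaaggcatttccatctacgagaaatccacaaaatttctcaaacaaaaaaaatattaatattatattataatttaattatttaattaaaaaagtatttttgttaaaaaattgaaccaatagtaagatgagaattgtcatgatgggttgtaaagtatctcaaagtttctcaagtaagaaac
ANAC032: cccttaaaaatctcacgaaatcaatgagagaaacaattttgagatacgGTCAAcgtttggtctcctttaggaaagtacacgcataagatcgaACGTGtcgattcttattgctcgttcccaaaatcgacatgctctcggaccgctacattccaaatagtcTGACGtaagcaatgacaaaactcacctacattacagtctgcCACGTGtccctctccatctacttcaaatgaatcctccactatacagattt

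NAC004 held 5 matches to TGACG in this window, 2 on the strand of the gene and 3 on the other, all within the last 84 bases. Of these, 4 lie in a pair of TGACGTCA palindromes, which begin 84 and 43 bases before the start, and the one nearer the start is preceded by a T that completes the word TTGAC. Among the 27443 upstream windows of 250 bases in the annotation, 18.6% held at least 1 TGACG, 0.0182% (5 windows) held at least 5 and 0.503% (138 windows) held TGACGTCA. NAC003 and ANAC032 each held 1 TGACG and ATAF2 held none. TTGAC stood once in the windows of NAC004, ATAF2 and ANAC032, and in 44.9% of all windows. ACGTG stood 3 times in ANAC032, where the full G-box CACGTG is also present (6.5% of windows), once in NAC003, and in 22.9% of all windows. These words were counted after the sequences had been seen, and a match describes the letters only.

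The 9 genes covered a wide range of abundance. Levels are given in CPM, counts divided by the library size after trimmed-mean scaling and put on the usual common scale. Per kilobase of the longest annotated transcript and over the 72 libraries, ATAF2 was highest with 35.8 ± 11.1 CPM per kb (SD), followed by ATAF1 with 18.4 ± 4.46, ANAC072 with 9.71 ± 4.84, NAC003 with 9.48 ± 2.35, ANAC019 with 4.35 ± 1.92, ANAC032 with 3.82 ± 1.01, ANAC055 with 2.44 ± 1.47, NAC004 with 0.701 ± 0.684 and ANAC042 with 0.391 ± 0.160. The neighbours ANAC072 and NAC003, ANAC019 and ANAC032, ANAC032 and ANAC055, and NAC004 and ANAC042 differed by less than the larger of their SDs over libraries. NAC004 and ANAC042 were the thinnest measurements, with 1 to 92 and 2 to 24 counts per library, while every other member had at least 24 counts in each library. NAC004 had the widest range between groups, 47.4-fold from the lowest to the highest group mean, against 2.23-fold to 6.23-fold for the others.

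**Figure D1:**
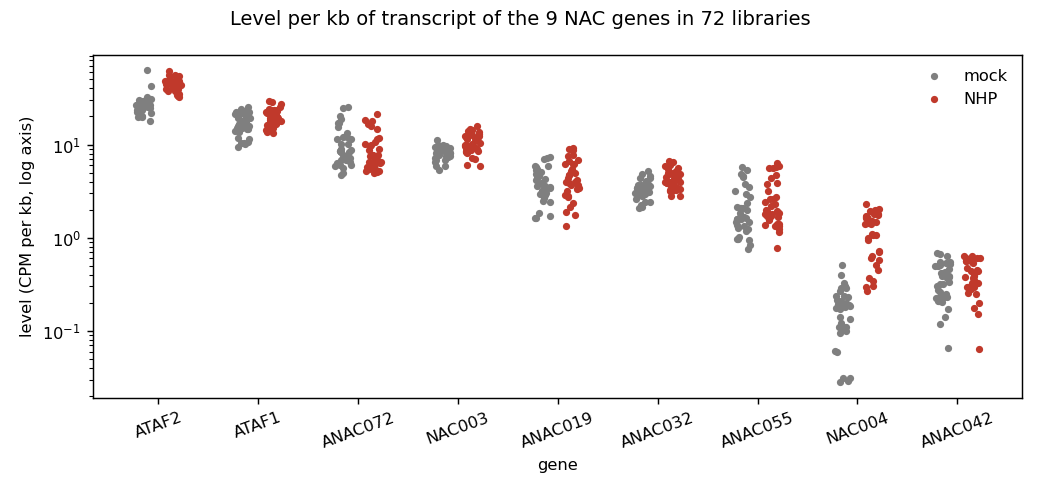
Level of each of the 9 NAC genes in 72 libraries, in CPM per kilobase of the longest annotated transcript on a log axis, with mock libraries in grey and NHP libraries in red. Genes are ordered by their mean, from ATAF2 at 35.8 to ANAC042 at 0.391 CPM per kb, and the spread of NAC004 is the widest.

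Libraries held 19618319 to 28382977 counted reads (median 23373939.5). ICS1, the gene mutated in sid2-2, had a median of 10.0 CPM in Col-0, 0.906 in sid2-2 and 9.62 in fmo1-1, and FMO1 a median of 2.49, 1.90 and 0.187 CPM, so both mutants matched their labels. The 3 leaf and 5 root marker genes were present in every library (summed levels 9848 to 28210 and 3465 to 4889 CPM), as whole seedlings would have, and the 3 seed storage genes summed to at most 0.493 CPM. One sid2-2 library titled 30 min NHP replicate 3 carries 180 min in another label and was grouped by its title. Without it ATAF1 lost its call in sid2-2 at 30 min, and no other member changed its side of the threshold there or in the interaction at 30 min. The study's setup table gives the Col-0 and sid2-2 libraries a batch number, without saying what was batched. It places NHP and mock libraries of 1 genotype in different batches at the first 3 times. Batch and treatment therefore cannot be told apart there for Col-0 and sid2-2. Col-0 mock and sid2-2 mock shared a batch at 15 min, but at 30 min and 3 h they were in different batches, so genotype and batch cannot be told apart at those times, and at 6 h 1 of the 3 Col-0 mock libraries shared the batch of sid2-2 mock. At 6 h a batch term could be fitted, but it rests on few libraries. For Col-0 it leaves 1 NHP and 1 mock library in a shared batch. All sid2-2 mock libraries at 6 h were in 1 batch and all sid2-2 NHP libraries in the next, and the step between these batches is taken from 1 Col-0 NHP library against 2 others. The batches of the fmo1-1 libraries were not analysed here.

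NAC004 was low in mock seedlings and higher after NHP in all 3 genotypes. In Col-0 at 15 min the mock libraries were at 0.339, 0.159 and 0.282 CPM and the NHP libraries at 0.827, 1.01 and 0.727 CPM, a ratio of 3.35 (95% interval 1.96 to 6.01). At 30 min they were at 0.412, 0.385 and 0.25 against 2.81, 2.11 and 2.57 CPM, a ratio of 7.21 (95% interval 4.68 to 11.6). At 3 h they were at 0.137, 0.202 and 0.159 against 2.84, 2.16 and 2.04 CPM, a ratio of 14.2 (95% interval 7.91 to 28). The NHP libraries lay above every mock library at each of these times, and the mean under NHP was 0.853 ± 0.141 CPM (SD, n = 3) at 15 min and 2.50 ± 0.357 CPM (SD, n = 3) at 30 min. At 6 h the values were 0.266, 0.431 and 0.160 against 2.41, 2.93 and 1.52 CPM, a ratio of 8.05 (95% interval 5.10 to 13.3), again without overlap. The intervals come from the summed counts of the 3 wells (exact, conditional on their sum) and cover counting error only. They leave out the spread between wells, so they are too narrow for it and are not a test of the rise.

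In sid2-2 the NAC004 values at 15 min were 0.302, 0.260 and 0.247 CPM in mock and 0.499, 0.423 and 0.431 CPM with NHP. The ratio was 1.67 (95% interval of counting error 0.894 to 3.19). At 30 min they were 0.337, 0.144 and 0.311 against 1.52, 1.59 and 1.35 CPM, a ratio of 5.63 (95% interval 3.33 to 10.07). Without the library whose labels disagree the fitted log2 fold change there was 2.53, against 2.47 with it. At 3 h they were 0.0406, 0.268 and 0.195 against 2.00, 2.54 and 0.880 CPM, a ratio of 11.3 (95% interval 6.08 to 23.2). One NHP library at 3 h thus stood well below the other two. At 6 h the values were 0.0448, 0.0876 and 0.0415 against 0.912, 1.04 and 1.42 CPM, a ratio of 19.4 (95% interval 7.30 to 72.8) that rests on 4 counts in the 3 mock libraries together. The NHP libraries lay above the mock libraries at all 4 times, and the mean level under NHP was 1.12 ± 0.266 CPM (SD, n = 3) at 6 h, against 2.29 ± 0.711 CPM (SD, n = 3) in Col-0.

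NAC004 was chosen for its rise in Col-0 and sid2-2, with its fmo1-1 results already known. Its fmo1-1 response was put to the quasi-likelihood test of edgeR, with p adjusted over all genes. These p-values are not independent support for the choice. At 15 min the values were 0.271, 0.287 and 0.568 CPM in mock and 0.387, 0.654 and 0.535 CPM with NHP, which overlap, and the log2 fold change of 0.49 ± 0.42 (SE) did not pass (adjusted p = 0.627). At 30 min the values were 0.154, 0.733 and 0.335 against 2.82, 2.78 and 2.26 CPM, a log2 fold change of 2.68 ± 0.32 (adjusted p = 4.88e-09). At 3 h they were 0.0853, 0.174 and 0.0453 against 2.43, 2.48 and 3.33 CPM, a log2 fold change of 4.68 ± 0.41 (adjusted p = 2.05e-13) and the highest group mean of NAC004 in the series. The large fold at 3 h goes with a low mock group of 7 counts in all, and the count ratio was 27.0 (95% interval 12.9 to 68.0). At 6 h the values were 0.417, 0.475 and 0.270 against 2.00, 2.35 and 2.56 CPM, a log2 fold change of 2.56 ± 0.32 (adjusted p = 1.12e-08). The 3 NHP libraries lay above the 3 mock libraries from 30 min on, and each of these calls held in each of the fits without 1 of the 6 libraries.

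**Figure D2:**
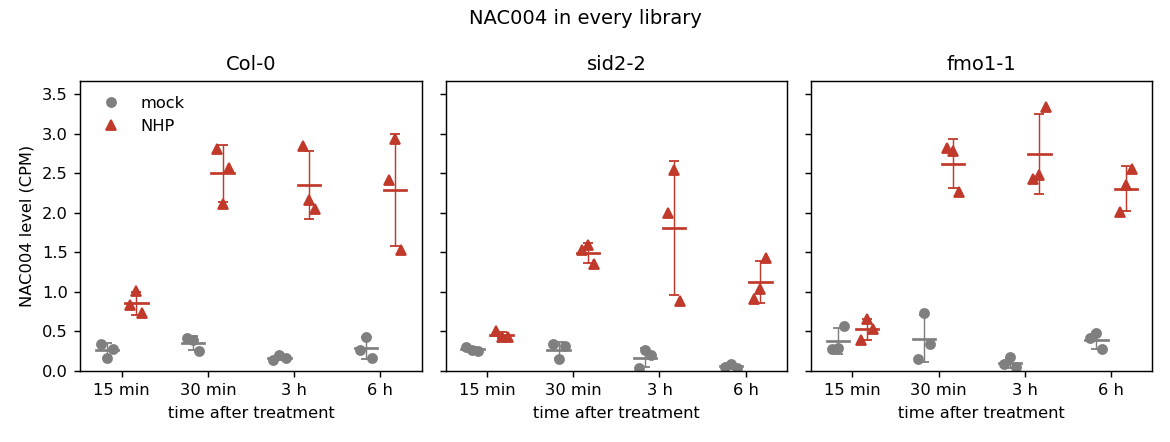
NAC004 level (CPM) in every library, with mock in grey circles and 0.5 mM NHP in red triangles, 1 panel for each genotype, and mean ± SD of 3 wells as lines. From 30 min on the NHP wells sit above the mock wells in every panel, while at 15 min the Col-0 wells are apart and those of fmo1-1 overlap.

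The size of the NAC004 response was set side by side between genotypes. At 15 min the log2 fold change was 1.72 in Col-0, 0.73 in sid2-2 and 0.49 in fmo1-1, differences from Col-0 of -0.99 ± 0.65 and -1.23 ± 0.60 (SE). At 6 h it was 4.16 in sid2-2 and 2.99 in Col-0, a difference of 1.17 ± 0.76. These differences contain the responses for which NAC004 was chosen and are given without a p.

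In mock seedlings the NAC004 level of sid2-2 was below that of Col-0 at 6 h, with 1, 2 and 1 against 7, 10 and 4 counts per library. The log2 difference was -2.19 ± 0.69 (SE), given without a p because these mock libraries entered the responses for which NAC004 was chosen. At the other times the log2 difference lay between -0.39 and 0.08, and for fmo1-1 against Col-0 it lay between -0.68 and 0.54. Between mock time points of fmo1-1 NAC004 fell by 1.93 ± 0.57 on the log2 scale from 30 min to 3 h (adjusted p = 0.00737) and rose by 1.87 ± 0.58 from 3 h to 6 h by edgeR (adjusted p = 0.0197). The fall was lost without fmo1-1 30 min replicate 2, whose 18 counts were the highest of any mock library (adjusted p = 0.193), and the rise was lost without any of 4 of the 6 libraries (up to 0.112). The Col-0 libraries gave -1.03 ± 0.53 and 0.74 ± 0.55 for the same steps, and the difference between genotypes was not tested.

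Over the 24 group means of log2 CPM, the genes most like NAC004 among 18941 were DMR6 (Pearson r = 0.933), an SA hydroxylase, WRKY51 (0.928), a WRKY factor, and APK2B (0.918), a protein kinase. Within the 9, NAC004 ran closest to ANAC032 (0.771), ATAF2 (0.711) and NAC003 (0.708), and it showed little relation to ANAC055 (-0.093) and ANAC072 (-0.199). These values describe 24 group means that share treatment, time and libraries, and carry no test.

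Across the other 8 genes, the calls under NHP were all increases. In Col-0, 9 of 32 gene and time combinations passed, in sid2-2 12 and in fmo1-1 6, and no fall passed by edgeR. At 3 h all NHP libraries lay below all mock libraries for ANAC055 and ANAC072 in Col-0 and for ANAC072 in fmo1-1. The same held for ANAC042 in Col-0 at 15 min. Of the 8, 1, 1, 3 and 4 rose in Col-0 at the successive times, where 0.917%, 0.779%, 1.69% and 3.03% of all genes tested rose. In sid2-2, 0, 2, 6 and 4 of the 8 rose (1 at 30 min without the library whose labels disagree) against 2.45%, 0.699%, 5.79% and 4.94% of all genes. In fmo1-1, 1, 1, 2 and 2 of the 8 rose against 1.29%, 0.946%, 2.16% and 2.64% of all genes. The median log2 fold change of the 8 was 0.46 in Col-0, 0.59 in sid2-2 and 0.27 in fmo1-1 at 6 h, against -0.0047, -0.018 and -0.0041 for all genes.

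**Figure D3:**
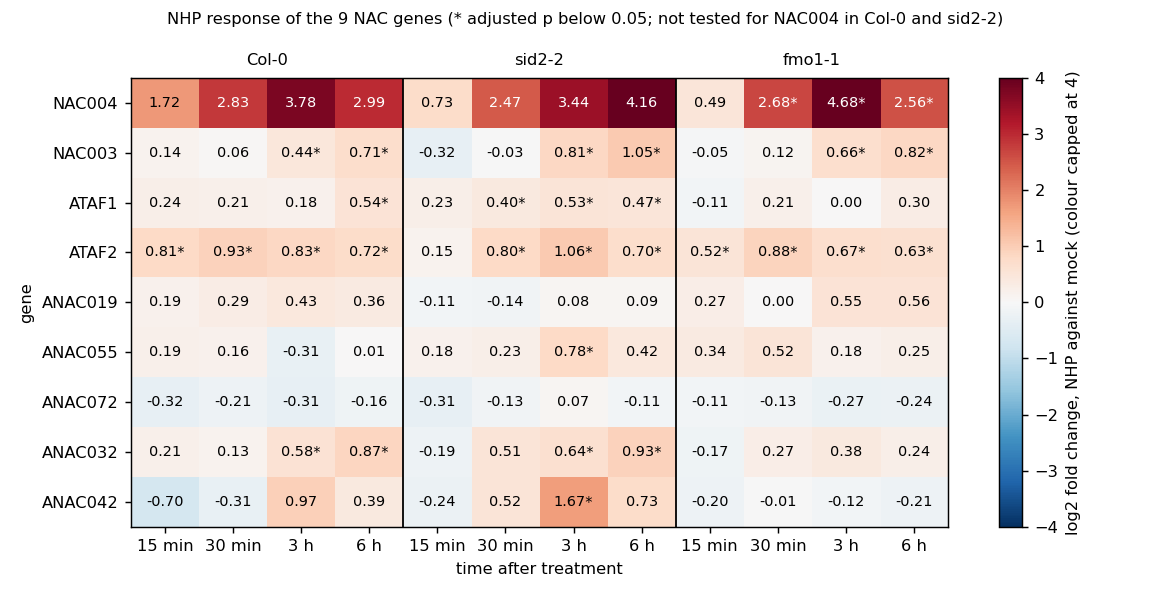
Log2 fold change of each gene with NHP against mock, for 3 genotypes and 4 times, with an asterisk where the adjusted p of edgeR's quasi-likelihood test was below 0.05 (no asterisk was set for NAC004 in Col-0 and sid2-2, which chose it). NAC004 and ATAF2 are red across nearly all columns, NAC003 turns red at 3 h and 6 h in each genotype, and ANAC072 stays between -0.32 and 0.07.

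ATAF2, a factor known from wounding, SA and pathogen responses and from repression of pathogenesis-related genes, was the only one of the 8 that passed at 15 min, in Col-0 and in fmo1-1. In Col-0 the ATAF2 level rose from 41.2, 40.3 and 38.0 CPM in mock to 70.3, 66.6 and 71.9 CPM with NHP within 15 min, a log2 fold change of 0.81 ± 0.15 (adjusted p = 1.96e-04). It stayed higher at 30 min, with 27.4, 30.9 and 31.2 against 60.2, 56.9 and 52.9 CPM (0.93 ± 0.15, adjusted p = 3.44e-05). At 3 h the values were 38.6, 42.8 and 44.0 against 71.6, 85.3 and 66.4 CPM (0.83 ± 0.15, adjusted p = 8.26e-05). At each time all NHP libraries lay above all mock libraries. At 6 h they were 41.0, 43.7 and 38.4 against 63.4, 69.7 and 70.1 CPM (0.72 ± 0.15, adjusted p = 4.78e-04), and with the batch term the change at 6 h was 0.72 (adjusted p = 0.00115).

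In fmo1-1 ATAF2 rose at all 4 times by the same test, with log2 fold changes of 0.52 ± 0.15, 0.88 ± 0.15, 0.67 ± 0.14 and 0.63 ± 0.14. The call at 15 min was near the threshold (adjusted p = 0.0290) and was lost on dropping any of its 6 libraries (adjusted p up to 0.101). There the mock libraries were at 40.9, 41.7 and 43.0 CPM and the NHP libraries at 57.6, 60.8 and 61.9 CPM, without overlap. In sid2-2 ATAF2 rose at 30 min (0.80 ± 0.15, adjusted p = 6.26e-04), 3 h (1.06 ± 0.15, adjusted p = 1.18e-06) and 6 h (0.70 ± 0.15, adjusted p = 6.37e-04). At 30 min the change was 0.65 (adjusted p = 0.0269) without the library whose labels disagree.

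At 15 min the ATAF2 level in the sid2-2 mock libraries was 64.9, 96.0 and 44.6 CPM, widely spread, and that in the NHP libraries 77.2, 74.3 and 74.6 CPM, close to the NHP libraries of Col-0. The change with NHP was 0.15 ± 0.14 (adjusted p = 0.634), and its difference from the Col-0 change was -0.66 ± 0.20 (adjusted p = 0.257). That difference passed when sid2-2 mock replicate 3, the lowest of the 3, was left out (-0.90, adjusted p = 0.00414 by edgeR). In mock alone the 15 min level of ATAF2 in sid2-2 exceeded that of Col-0 by 0.78 ± 0.15 (adjusted p = 4.57e-05 by edgeR). Both groups had the same batch number but grew on different plates. This difference ranged from 0.46 to 1.01 when 1 library was left out and stayed past the threshold, and 0.46 was the value without sid2-2 mock replicate 2. Of 9 tested genes known to respond to touch and handling, 8 were also higher in sid2-2 mock at 15 min, against 17.5% of all genes. Their summed level was 351 to 907 CPM there against 264 to 279 CPM in Col-0 mock. At 30 min, 3 h and 6 h, 2, 4 and 3 of the 9 were higher, against 13.3%, 20.2% and 18.8% of all genes. At those times the ATAF2 levels of the 2 genotypes overlapped in mock. Some touch genes also rose with NHP in part of the comparisons in which ATAF2 did. In Col-0 at 15 min 3 of the 9 rose, to a summed 327 to 396 CPM, and at 3 h 2 rose (209 to 212 against 262 to 375 CPM). In sid2-2 at 30 min 3 rose (377 to 462 against 510 to 627 CPM) and at 3 h 6 did, and in fmo1-1 at 15 min 1 rose (304 to 338 against 348 to 375 CPM). In the other comparisons with NHP none of the 9 passed. Among these comparisons, ATAF2 rose in Col-0 at 30 min and 6 h and in sid2-2 at 6 h. It also rose in fmo1-1 at 30 min, 3 h and 6 h. The part of the touch genes in the ATAF2 differences was not tested. The genes most like ATAF2 over the 24 groups were AT5G14730 (r = 0.868), WRKY40 (0.84) and SIB1 (0.835). SIB1 is a cofactor of a sigma factor and of WRKY33. WRKY40 is itself on the touch list, but the paper also counts it among its NHP-responsive genes. There it was higher with NHP at 15 min, 30 min and 6 h in Col-0 and from 30 min on in sid2-2. Whether its course here goes with touch or with NHP was not tested.

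NAC003, the tandem neighbour of NAC004, passed at 3 h and 6 h in each genotype and at neither earlier time. In Col-0 its level at 3 h was 14.7, 15.6 and 18.0 CPM in mock and 22.4, 20.7 and 22.5 CPM with NHP (0.44 ± 0.10 on the log2 scale, adjusted p = 0.00194). At 6 h it was 11.96, 12.2 and 12.4 against 19.7, 20.8 and 19.4 CPM (0.71 ± 0.10, adjusted p = 1.93e-07). The mock and NHP libraries did not overlap at either time. With the batch term the change at 6 h kept its size (0.66) but not its call (adjusted p = 0.0505).

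In sid2-2 NAC003 was at 8.58, 9.32 and 11.6 CPM in mock and 18.5, 17.5 and 15.6 CPM with NHP at 3 h (0.81 ± 0.11, adjusted p = 7.56e-08). At 6 h it was at 10.8, 9.42 and 11.4 against 18.9, 25.1 and 21.6 CPM (1.05 ± 0.10, adjusted p = 3.06e-12, and 1.04 with the batch term, adjusted p = 0.00136). In fmo1-1 the changes were 0.66 ± 0.10 at 3 h (adjusted p = 1.95e-06) and 0.82 ± 0.10 at 6 h (adjusted p = 6.00e-09). At 15 and 30 min NAC003 did not pass in any genotype, with log2 fold changes from -0.32 to 0.14. The lowest of these, in sid2-2 at 15 min, passed without mock replicate 3 (-0.41, adjusted p = 0.0184) and without NHP replicate 2 (-0.39, 0.0439). The larger change of NAC003 in sid2-2 at 3 h goes with a lower mock level, -0.72 ± 0.11 against Col-0 mock (adjusted p = 9.66e-08). The interaction was 0.37 ± 0.14 (adjusted p = 0.159), and of the fits run it passed only without sid2-2 mock replicate 3 (0.50, adjusted p = 0.0455). The genes most like NAC003 over the 24 groups were GSTU8 (r = 0.919), a glutathione transferase, ALF5 (0.909), an efflux carrier, and AT4G39955 (0.905).

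ANAC032, an ATAF branch factor known from SA, jasmonate and oxidative stress responses, rose late in Col-0 and sid2-2. In Col-0 at 6 h it was at 6.57, 6.30 and 4.23 CPM in mock and 9.57, 10.4 and 11.1 CPM with NHP (0.87 ± 0.17, adjusted p = 2.05e-04), and with the batch term at 1.17 (adjusted p = 0.0035). At 3 h the change of 0.58 ± 0.17 (adjusted p = 0.0396) was lost without any of the mock replicates or NHP replicate 2 (adjusted p 0.0741 to 0.560). That replicate stood at 11.5 CPM, above the other NHP libraries at 7.24 and 6.13. In sid2-2 at 6 h ANAC032 was at 4.21, 3.86 and 3.65 CPM in mock and 6.66, 8.87 and 6.75 CPM with NHP (0.93 ± 0.18, adjusted p = 2.27e-04), but 0.78 with an adjusted p = 0.0787 with the batch term. At 3 h it changed by 0.64 ± 0.18 (adjusted p = 0.0125), which did not pass when mock replicate 1 was dropped (0.49, 0.129) or when NHP replicate 1 was (0.53, 0.102). In fmo1-1 its changes, -0.17 to 0.38, did not pass, although all NHP libraries lay above all mock libraries at 30 min, 3 h and 6 h. At 6 h the fmo1-1 mock libraries were already at 7.99, 8.95 and 7.59 CPM. The difference of the fmo1-1 from the Col-0 response at 6 h was -0.63 ± 0.23 (adjusted p = 0.951) and did not pass. UGT73B3, a glucosyltransferase, was most like ANAC032 (r = 0.885), then AT5G25930 (0.863) and MFP2 (0.850), an enzyme of fatty acid beta-oxidation.

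ATAF1, which directly activates the abscisic acid synthesis gene NCED3 and promotes leaf senescence, changed little with NHP. In Col-0 it passed at 6 h, at 22.6, 26.1 and 19.6 CPM in mock and 31.0, 34.4 and 33.7 CPM with NHP (0.54 ± 0.11, adjusted p = 6.65e-04, and 0.65 with the batch term, adjusted p = 0.0046). In sid2-2 it passed at 3 h, at 18.9, 16.8 and 17.7 against 28.3, 25.1 and 23.6 CPM (0.53 ± 0.12, adjusted p = 0.00165). It also passed there at 6 h (0.47 ± 0.12, adjusted p = 0.00472), where the batch term gave 0.35 and an adjusted p = 0.217. The sid2-2 call at 30 min, 0.40 ± 0.11 (adjusted p = 0.0415), was lost without mock replicate 1 (0.32, 0.266) or 2 (0.42, 0.101) and without NHP replicate 2 (0.43, 0.067) or 3 (0.29, 0.311), the last being the library whose labels disagree. In fmo1-1 its changes of -0.11 to 0.30 did not pass by edgeR, and DESeq2 on the 6 libraries of fmo1-1 at 6 h called the last (adjusted p = 0.00591). Reads of ATAF1 may include some from AT1G04043 and AT1G01725, which overlap it on the other strand by 344 and 28 bases, those of ATAF2 some from AT5G08780 (158 bases) and those of ANAC042 some from AT2G42990 (107 bases), since strand-aware counting is not stated.

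**Figure D4:**
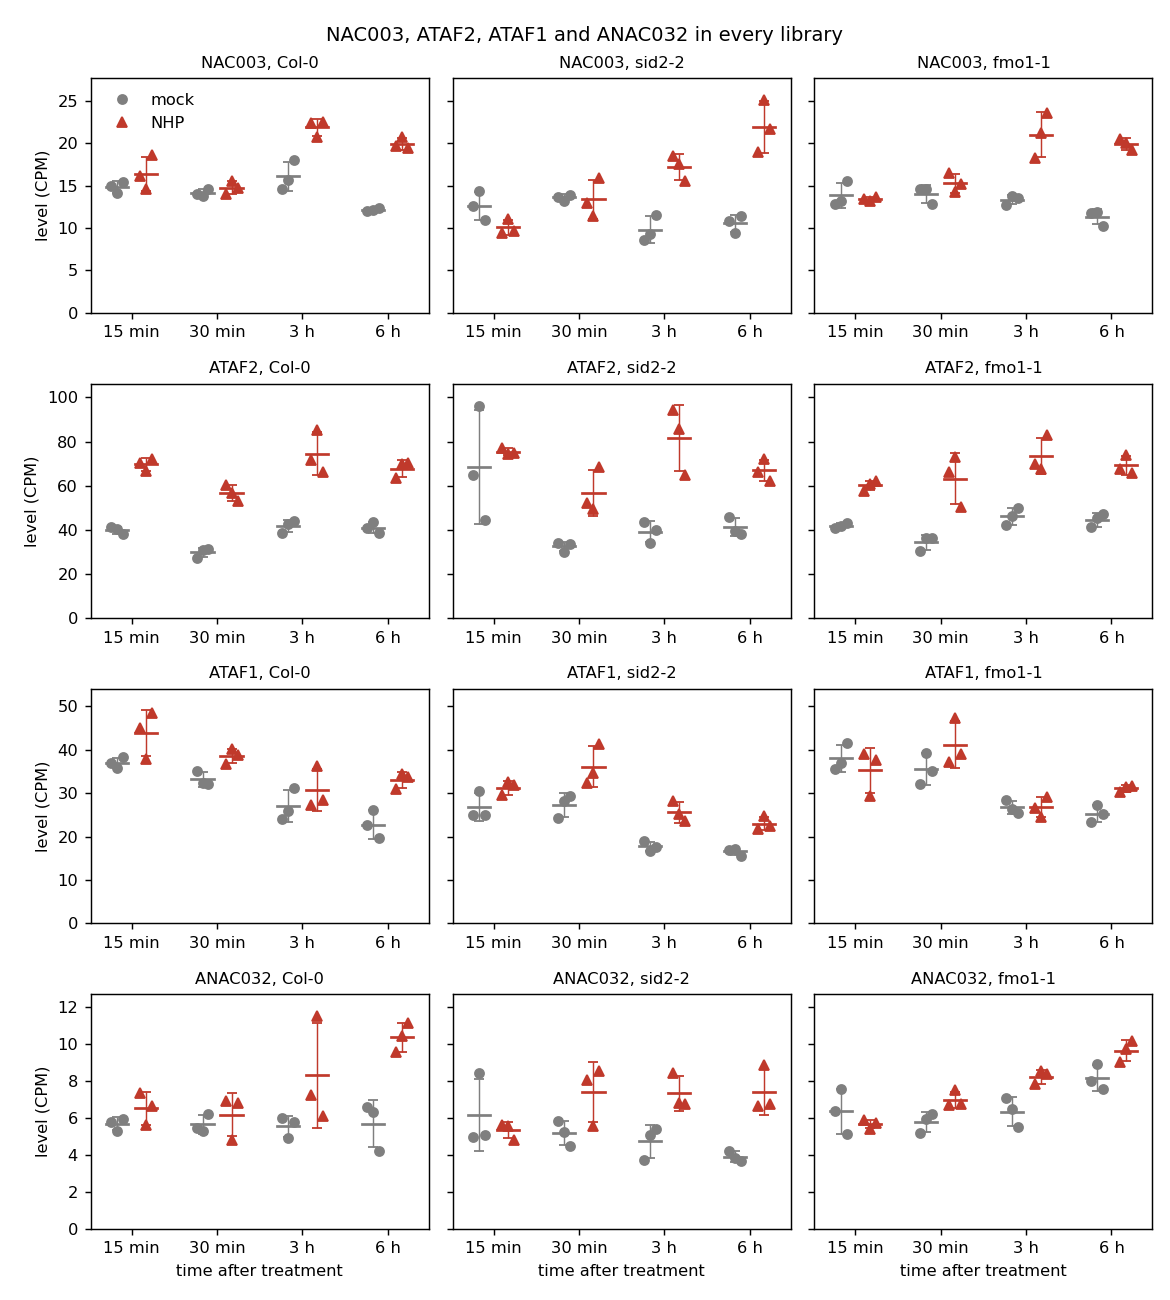
Level (CPM) of NAC003, ATAF2, ATAF1 and ANAC032 in every library, 1 row for each gene and 1 column for each genotype, with mock in grey circles, 0.5 mM NHP in red triangles and mean ± SD of 3 wells as lines. ATAF2 is apart at every time in Col-0, NAC003 from 3 h on in each genotype, and the 3 sid2-2 mock wells of ATAF2 at 15 min spread from 44.6 to 96.0 CPM.

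The trio ANAC019, ANAC055 and ANAC072, known as abscisic acid and jasmonate responsive genes downstream of MYC2, gave 1 call with NHP by edgeR. ANAC072 (also called RD26) did not pass in any of its 12 comparisons, with log2 fold changes from -0.32 to 0.07, and neither did ANAC019, with changes from -0.14 to 0.56. DESeq2 on the 6 libraries of a comparison alone called ANAC072 lower in Col-0 at 15 min (-0.32, adjusted p = 0.0358) and ANAC019 higher in fmo1-1 at 6 h (0.57, 0.00199). ANAC055 passed once, in sid2-2 at 3 h, at 1.59, 1.29 and 2.49 CPM in mock and 2.98, 3.53 and 2.64 CPM with NHP (0.78 ± 0.25, adjusted p = 0.0289). The call was lost without mock replicate 1 (0.70, adjusted p = 0.124) or 2 (0.60, 0.177) and without NHP replicate 1 (0.80, 0.0683) or 2 (0.67, 0.157). Its difference from the Col-0 change at 3 h was 1.09 ± 0.36 (adjusted p = 0.0838), the lowest adjusted p of the 32 interaction terms of the 8 genes for sid2-2, and it passed without sid2-2 mock replicate 3 (1.39, 0.0254). ANAC042 passed once, also in sid2-2 at 3 h, with 4, 7 and 4 counts in mock and 18, 18 and 11 with NHP (1.67 ± 0.47, adjusted p = 0.0106). That call was lost without mock replicate 1 (1.47, 0.0711) or NHP replicate 2 (1.57, 0.0529). In this comparison 6 of the 9 touch genes also rose, with a summed level of 225 to 296 CPM in mock and 339 to 537 CPM with NHP, and their part was not tested.

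None of the 8 passed an interaction test with all libraries: 0 of 32 terms passed for sid2-2 and 0 of 32 for fmo1-1 by edgeR, and 0 by DESeq2 on the 72 libraries, with 6 and 2 at an unadjusted p below 0.05. Over all genes 0%, 0.204%, 2.17% and 1.06% of terms passed for sid2-2 at the 4 times and 0.181%, 0%, 0.00475% and 0% for fmo1-1. Calls that appear in 1 genotype and not in another, such as ANAC032 in Col-0 and not in fmo1-1, are therefore not shown to differ.

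Part of the root markers moved with the treatment. Of the 5 root genes, 3 or 4 were lower with NHP in every genotype and at every time, among them EXPA7, PRP3 and COBL9 of root hairs, by -0.96, -1.30 and -0.82 in Col-0 at 15 min. The share of all genes that fell with NHP is not given here. In sid2-2 at 3 h and 6 h and in fmo1-1 at 3 h, 2 of the 5 had a log2 fold change above 0. The summed root level, led by PYK10, overlapped in that comparison, with 4359 to 4889 CPM in mock and 4186 to 4522 CPM with NHP. In Col-0 at 6 h it was lower without overlap, with 4273 to 4567 CPM in mock and 3465 to 4153 CPM with NHP, and in sid2-2 at 6 h it was 4364 to 4752 against 4582 to 4758 CPM. At 3 h it was 3814 to 4260 against 4217 to 4488 CPM in sid2-2 and 4246 to 4450 against 4410 to 4662 CPM in fmo1-1. Of the 3 leaf genes, 1 was lower with NHP in sid2-2 at 3 h, 1 in sid2-2 at 6 h and 1 in fmo1-1 at 6 h, and the other NHP comparisons gave no leaf call. In whole seedlings, fewer cells of a type and less RNA per cell cannot be told apart, and the part of root hairs in the NAC changes was not tested.

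Without NHP the clearest differences among the 9 lay between sid2-2 and Col-0 and between times. The leaf genes moved with this comparison, with a summed level of 25030 to 25200 CPM in sid2-2 and 16600 to 16820 CPM in Col-0 mock at 15 min, and 4 of the 5 root genes were lower in sid2-2 mock at each time. Their part was not tested. In sid2-2 mock, 2, 1, 0 and 0 of the 8 genes other than NAC004 were higher and 2, 1, 3 and 2 lower at the successive times. Over all genes 17.5%, 13.3%, 20.2% and 18.8% were higher and 13.9%, 12.3%, 16.4% and 12.6% lower, so shares of this size are common in this comparison. ANAC072 was lower in sid2-2 at 15 min, at 27.4, 20.4 and 21.6 CPM against 44.0, 44.7 and 36.3 CPM in Col-0 (-0.84 ± 0.12, adjusted p = 1.71e-07), without overlap and within 1 batch but on different plates. It was lower also at 30 min (-0.52 ± 0.13, adjusted p = 0.00194) and 3 h (-0.53 ± 0.14, adjusted p = 0.00239), at both of which the genotypes were in different batches, and at 6 h it just missed the threshold (-0.35 ± 0.14, adjusted p = 0.0537), where DESeq2 on the 72 libraries (adjusted p = 0.0388) and the 48 libraries of Col-0 and sid2-2 (0.0399) called it.

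ATAF1 was lower in sid2-2 mock too, at 24.9, 30.5 and 25.1 CPM against 36.9, 35.9 and 38.3 CPM at 15 min (-0.47 ± 0.11, adjusted p = 7.82e-04), again without overlap. The differences at 3 h and 6 h were -0.61 ± 0.12 (adjusted p = 3.12e-05) and -0.46 ± 0.12 (adjusted p = 0.00216). ANAC019, ANAC032 and ANAC042 gave calls that were lost when 1 library was left out. ANAC019 was higher at 30 min (0.81 ± 0.29, adjusted p = 0.0370), a call lost without any of the Col-0 replicates or sid2-2 replicates 2 or 3 (adjusted p up to 0.147). ANAC032 was lower at 6 h (-0.55 ± 0.19, adjusted p = 0.0215), lost without Col-0 replicates 1 or 2 or sid2-2 replicates 2 or 3 (up to 0.1246). ANAC042 was higher at 15 min with 16, 13 and 21 against 7, 7 and 8 counts (1.25 ± 0.43, adjusted p = 0.0193), lost without Col-0 replicate 2 or sid2-2 replicate 3 (up to 0.0816). In fmo1-1 mock none of the 8 passed at any time by edgeR or DESeq2 (5 of 32 had an unadjusted p below 0.05, lowest adjusted p = 0.0964), where 0.561%, 0.299%, 0.0665% and 0.0713% of all genes were called.

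Levels changed strongly over the 6 h of mock treatment, in which time after the medium change, time of day and batch cannot be told apart. ANAC055 fell between 15 and 30 min in every genotype. In Col-0 it went from 8.81, 8.18 and 5.75 CPM to 2.06, 1.93 and 1.96 CPM (-1.93 ± 0.22, adjusted p = 1.04e-09). The same step was -1.39 ± 0.23 in sid2-2 (adjusted p = 5.67e-06) and -2.20 ± 0.24 in fmo1-1 (adjusted p = 1.86e-10). ANAC072 fell at the same step, from 44.0, 44.7 and 36.3 CPM to 23.6, 21.4 and 20.3 CPM in Col-0 (-0.93 ± 0.12, adjusted p = 5.96e-08). It fell again to 12.7, 12.3 and 15.4 CPM at 3 h (-0.69 ± 0.13, adjusted p = 3.08e-05), and both falls passed in sid2-2 and fmo1-1 as well, the second in fmo1-1 only just (adjusted p = 0.0381, up to 0.167 with 1 library left out). Over the 3 steps and 3 genotypes 24 of 72 tests of the 8 genes other than NAC004 passed, 17 of them falls and 7 rises. Of all genes, 12.3%, 28% and 17.9% passed at the 3 steps in Col-0, 15.3%, 28.3% and 19.2% in sid2-2 and 9.16%, 27.8% and 12.7% in fmo1-1. The genes with courses most like ANAC055 were AT5G24890 (r = 0.934) and ERF104 (0.879), an ethylene response factor, and most like ANAC072 AT2G24550 (0.977) and AT3G49790 (0.935).

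ANAC019 took another course. In Col-0 it was at 4.79, 4.13 and 4.87 CPM at 15 min, 2.23, 2.21 and 2.34 at 30 min, 4.93, 4.69 and 4.02 at 3 h and 9.72, 7.81 and 6.02 at 6 h. Each step passed in Col-0 (-1.02 ± 0.29, 1.00 ± 0.29 and 0.79 ± 0.24, adjusted p = 0.012, 0.00539 and 0.0137 by edgeR), the last one not without 3 h replicate 3 or 6 h replicate 1 (up to 0.135). ATAF1 fell between 30 min and 3 h in each genotype, by 0.29 ± 0.11, 0.61 ± 0.12 and 0.41 ± 0.11 on the log2 scale in Col-0, sid2-2 and fmo1-1, and the Col-0 call (adjusted p = 0.0414) was lost without any of 5 of its 6 libraries (up to 0.214). ANAC019 was most like PDC2 (r = 0.927), a pyruvate decarboxylase, and ATAF1 most like AT4G15765 (0.935) and ITN1 (0.927), an ankyrin protein. ATAF2 fell in sid2-2 from 15 to 30 min by 1.07 ± 0.15 (adjusted p = 6.60e-07), from the raised level at 15 min, and NAC003 fell in sid2-2 from 30 min to 3 h by 0.48 ± 0.11 (adjusted p = 4.37e-04).

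**Figure D5:**
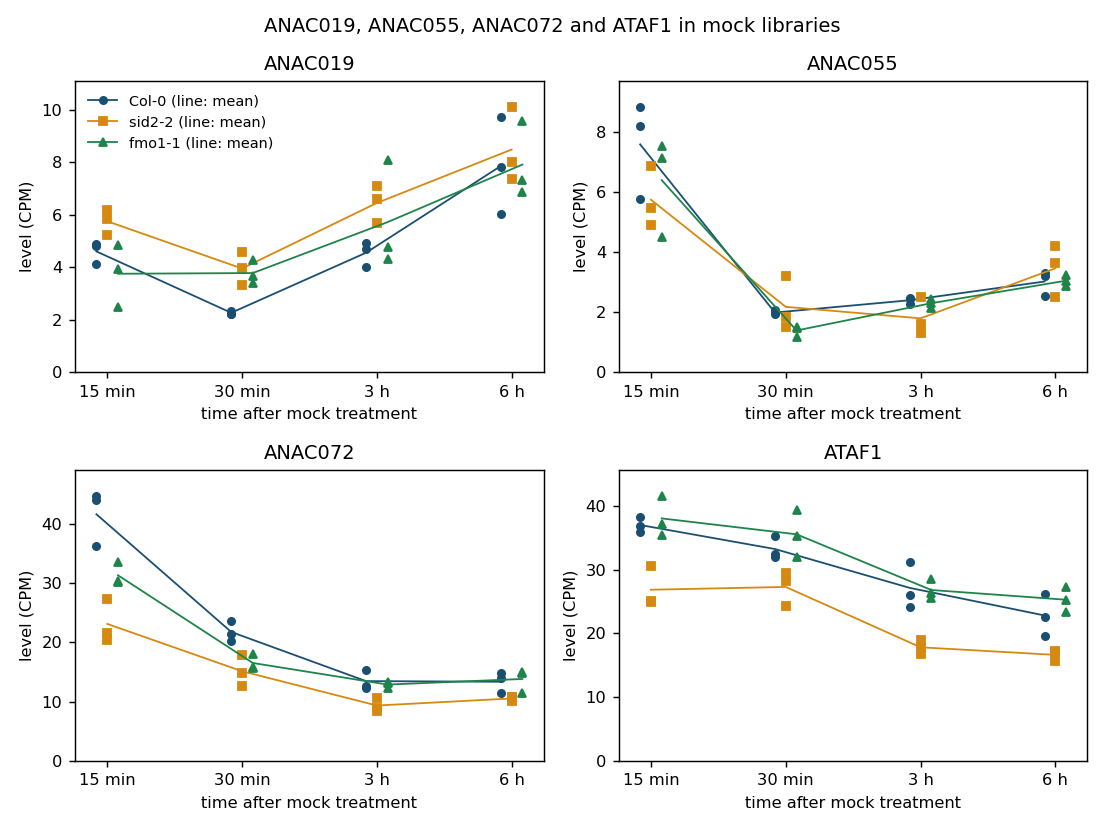
Level (CPM) of ANAC019, ANAC055, ANAC072 and ATAF1 in the mock libraries at each time, with 1 symbol for each well and lines through the means of 3 wells for Col-0, sid2-2 and fmo1-1. ANAC055 and ANAC072 are highest at 15 min in every genotype, ANAC019 is highest at 6 h, and the sid2-2 means lie lowest for ATAF1.

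Among 105 other NAC genes of the table, 72 passed the filter. With NHP, 2, 2, 3 and 5 of these 72 rose in Col-0 at the 4 times, 1, 3, 10 and 9 in sid2-2 and 3, 2, 2 and 2 in fmo1-1, and at most 1 fell in any comparison. Of all genes tested, 0.917%, 0.779%, 1.69% and 3.03% rose in Col-0 and 2.45%, 0.699%, 5.79% and 4.94% in sid2-2. In fmo1-1 1.29%, 0.946%, 2.16% and 2.64% did. The median log2 fold change of the 72 at 6 h was 0.028 in Col-0, 0.031 in sid2-2 and 0.10 in fmo1-1. NAC102, the remaining member of the ATAF branch, passed in 10 of the 12 comparisons and was named after its values were seen, with 0.55, 0.52, 0.50 and 0.68 in Col-0.

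Of a list of 15 genes known as targets of stress NAC factors or from the SA, jasmonate and abscisic acid pathways around them, 14 were tested. The shares of all genes that rose with NHP are those given above for the other NAC genes. The listed genes rose in 1, 1, 2 and 2 cases in Col-0 and in 0, 1, 5 and 4 in sid2-2. In fmo1-1 they rose in 0, 2, 2 and 2, with 1 fall at 15 min, and 1 also fell in Col-0 at 30 min. The rises were led by NIMIN-1, an NPR1 interactor, with 2.66 in Col-0 at 3 h and 2.23 at 6 h, and by UGT74F2, an SA glucosyltransferase, with 0.45 and 0.52 at the same times. MYC2 rose in Col-0 at 15 min alone (1.42, adjusted p = 0.00732 by edgeR). Of 15 abscisic acid response genes, at most 2 rose and at most 2 fell in any NHP comparison, with medians between -0.15 and 0.17. Of 10 listed jasmonate genes, 1 to 3 rose and none fell in each NHP comparison, with medians between 0.17 and 0.62.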

How the data were processed

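RNA of whole seedlings was read as 100 bp paired ends on poly(A) libraries. Per the labels and the study's methods, the authors trimmed the reads and mapped them to TAIR10 in CLC Genomics Workbench. The deposited table holds whole-number counts per gene, not normalised, for 72 libraries. How reads were assigned to genes, with which annotation and strand setting, is not given in the sources used here. Overlapping genes and close copies could therefore share reads.

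Groups came from the sample titles. Genes were kept by edgeR's filterByExpr (minimum count 10, total 15), libraries were scaled by the trimmed mean of M values, and 1 quasi-likelihood model with 24 groups was fitted to all 72 libraries (edgeR 4.0.16, limma 3.58.1, R 4.3.3). Within a comparison, p-values of the 21042 genes received the Benjamini-Hochberg adjustment, and a gene was called below 0.05. SE is the fold change over the root of F. The script was tested on simulated data. Counting intervals cover counting error only. Overlap between mock and NHP libraries was read for single genes, and its share over all genes was not computed. Sequences came from RefSeq TAIR10.1, read with Biopython 1.88, and figures were drawn with matplotlib 3.10.9.

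The 9 members and all lists were chosen with earlier results of these data known. Beyond the members, the 3 genes most like each were named (Pearson r of 24 group means of log2 CPM, genes of at least 1 CPM), with the largest called changes of a list. Alternatives were DESeq2 1.42.0, other scaling, no filter, a replicate block, fewer libraries, a batch term and leaving out each library. Same-numbered wells did not deviate together (36 pairs, r from -0.079 to 0.105), so replicate numbers were not taken as pairs.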

Additional observations from a re-analysis of the deposited data

How the results depend on the processing

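No change that passed the test in either fit turned its direction. Among the 8 genes other than NAC004, 176 of 3640 repeats of single-gene comparisons changed sign, none of them with a call. These include 5 of the 24 with the batch term (for example ANAC019 in sid2-2 at 6 h, from 0.094 to -0.13, and ANAC072, from -0.11 to 0.041). Of all repeats, 3544 kept their side of the threshold, 71 lost a call (62 of them with 1 library left out) and 25 gained one. With 1 library left out the calls among the 8 numbered 8 to 9 in Col-0, 9 to 13 in sid2-2 and 5 to 7 in fmo1-1 (9, 12 and 6 with all libraries), 10 to 12 for sid2-2 against Col-0 in mock (11), 21 to 25 for mock time steps (24), 0 to 2 for the sid2-2 interaction (0), and 0 to 0 for the fmo1-1 interaction and for fmo1-1 against Col-0 in mock. With the batch term at 6 h, calls among the 8 fell from 4 to 2 in sid2-2 and from 4 to 3 in Col-0, on 12 libraries. The cause was not tested. The replicate block gave 9, 12 and 6 calls for NHP, 12 for sid2-2 mock and 24 for time steps, and its 1 changed call was ATAF1 in sid2-2 mock at 30 min (adjusted p = 0.0459 by edgeR). Library scaling by TMM and by the relative log expression method of edgeR differed by at most 0.0193 log2. NAC004 and ANAC042 are limited by depth, with as few as 1 and 2 counts in a library.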
